A study of Mus musculus with 847 samples.

Results

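The antioxidant Nrf2 genes described here are 10 genes: Nfe2l2, Keap1, Nqo1, Hmox1, Gclc, Gclm, Slc7a11, Gsr, Txnrd1 and Srxn1. They were chosen by name as the transcription factor Nrf2 (encoded by Nfe2l2), its inhibitor Keap1 and 8 genes that Nrf2 is known to activate, and each was found once among the 21076 genes of the count table. The table holds 847 RNA sequencing libraries of 15 dissected brain regions from 59 mice of the inbred strain C57BL/6JN, and no mouse has more than 1 library of a region. The labels give no genotype other than the strain and no treatment, so the groups differ in region, sex and age. There were 5 females and 5 males at each of 3, 12, 15 and 18 months, 5 females and 6 males at 21 months, 5 males at 26 months and 3 males at 28 months. The mice older than 21 months were thus all male. Mouse numbers ran with age: mice 1 to 15 were those of 12 and 26 months, mice 57 to 59 those of 28 months, and mice 16 to 56 those of 3, 15, 18 and 21 months. Slopes and the differences of 15, 18 and 21 months from 3 months were therefore also computed in mice 16 to 56 alone, which cannot give the differences of 12, 26 and 28 months from 3 months. Each mouse gave libraries to up to 15 regions, so values of different regions come from the same animals.

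Nrf2 is held at a low level by Keap1, which binds it and marks it for ubiquitination. When reactive cysteines of Keap1 are modified by electrophiles or oxidants, Nrf2 escapes degradation, pairs with a small Maf protein and activates genes that carry an antioxidant response element. Its targets supply glutathione, reduce thioredoxin and peroxiredoxins and remove quinones and heme. In brain tissue the pathway is known best for its activity in glia, and much of the control of Nrf2 acts on the protein, which RNA levels do not show.

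The members lie on several chromosomes of the GRCm38 genome. In the GENCODE annotation, Nfe2l2 spans chr2:75675513-75704641 on the minus strand, Keap1 spans chr9:21229730-21239361 on the minus strand, and Srxn1 spans chr2:152105516-152111376 on the plus strand. Gclm spans chr3:122245557-122270732 on the plus strand, and Slc7a11 spans chr3:49892526-50443614 on the minus strand. Nqo1 spans chr8:107388225-107403206 on the minus strand, Hmox1 chr8:75093621-75100589 and Gsr chr8:33652523-33698163 on the plus strand. Gclc spans chr9:77754535-77794485 and Txnrd1 chr10:82833951-82897712, both on the plus strand. Because the sequencing did not keep the strand, reads from a gene and from one overlapping it on the other strand cannot be told apart. Keap1 shares 510 exonic bases with the antisense gene Gm16754. Gclm shares 296 exonic bases with Gm17494, on the opposite strand, and 244 with the pseudogene Gm6061, so the values of Keap1 and Gclm are uncertain to that extent.

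Antioxidant response elements were looked for in promoter windows of RefSeq, build GRCm38.p6, which run from 250 bases before to 50 bases after a start site. Windows of 7 of the 10 members were analysed, those of Hmox1, Gclc and Gsr were not analysed here. Both core forms, TGACNNNGC and TGAGNNNGC, were searched on both strands, and 5 of the 7 members had at least 1 match: Nfe2l2, Gclm, Txnrd1, Srxn1 and Slc7a11. The windows of Keap1 and Nqo1 held neither. Txnrd1 had 3 windows, of which 1 held a match, and the other analysed members had 1 window each. Of all 32851 windows, counted per window and not per gene, 12.4% held the first form, 17.6% the second and 27.8% either. The matches upstream of a start site are shown because this core is the sequence that Nrf2 with a small Maf protein is known to bind. Capitals mark the match, which reads as the core or as its reverse complement, and each sequence is given 5′ to 3′ on the strand of the gene.

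Nfe2l2, 240 bases before the start site, chr2:75704883-75704913, minus strand: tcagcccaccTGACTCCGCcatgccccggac
Gclm, 134 bases before, chr3:122245411-122245443, plus strand: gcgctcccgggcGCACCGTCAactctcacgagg
Txnrd1, 92 bases before its start site 2, chr10:82859102-82859134, plus strand: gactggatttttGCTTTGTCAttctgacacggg
Srxn1, 158 bases before, chr2:152105354-152105386, plus strand: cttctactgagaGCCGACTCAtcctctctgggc
Srxn1, 45 bases before, chr2:152105467-152105499, plus strand: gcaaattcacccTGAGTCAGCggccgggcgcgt
Slc7a11, 97 bases before, chr3:50443690-50443722, minus strand: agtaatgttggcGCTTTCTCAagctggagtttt

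A match is a description of these letters and not a measured binding site. Srxn1 was the member with the most matches, 3 in 1 window. Those shown are of the form TGAGNNNGC. The match of the form TGACNNNGC, at bases 29 to 37 after the start site, is not shown.

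The median library held 6716032 reads, the smallest 481444 and the largest 26756735. Levels are given in CPM, the reads of a gene relative to the total of its library after TMM scaling over all libraries, and they are compared between regions and ages but not between genes, since gene length was not taken into account. Of the members, 9 passed the filter on low counts in all 15 regions. Hmox1 passed in 12, had a median of 13 reads per library and was at 0 reads in 22 libraries, so it has the least precise values. Correlated with the mean profile of each region over 2000 region-variable genes, 13 libraries came nearest to another region than their own. Most were posterior hippocampus libraries that came nearest to anterior hippocampus. The entorhinal cortex library of mouse 52 came nearest to medulla, with a correlation of 0.925 against 0.604 with its own region. It was kept in the means and the main fits. The choroid plexus libraries had the choroid epithelium marker Ttr at a mean of 5226 CPM, with a range of 503.1 to 10950, but the summed neuron markers also reached a median of 6358 CPM there at 3 months. Ttr was high in some libraries of corpus callosum, up to 16540 CPM, and of the subventricular zone, up to 7317 CPM. The amount of such marker RNA thus varied between pieces of the same region, and in whole tissue fewer cells of a type and less RNA per cell cannot be told apart.

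The first question was where in the brain the members were high or low. Hmox1, the inducible enzyme that opens the heme ring, varied most between regions, with a mean of 6.696 CPM in medulla and 0.7209 in thalamus, a ratio of 9.29. Keap1, the adaptor that delivers Nrf2 for degradation, varied least, with a ratio of 1.32 between caudate putamen and olfactory bulb. Medulla or pons had the highest mean of 5 members: Nfe2l2, Hmox1, Gclm, Txnrd1 and Srxn1. Slc7a11 had the opposite order at that end, with its lowest mean in medulla. In 1 joint edgeR fit, the level of a member in a region differed from the mean of the other 14 in 137 of 150 tests at an adjusted p of 0.05, against 84.7% of all genes and regions tested. Region explained between 52.5% (Keap1) and 84.9% (Srxn1) of the variance of log2 CPM of the 9 members with at least 5 CPM on average, beside a median of 72.6% over all such genes.

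**Figure D1:**
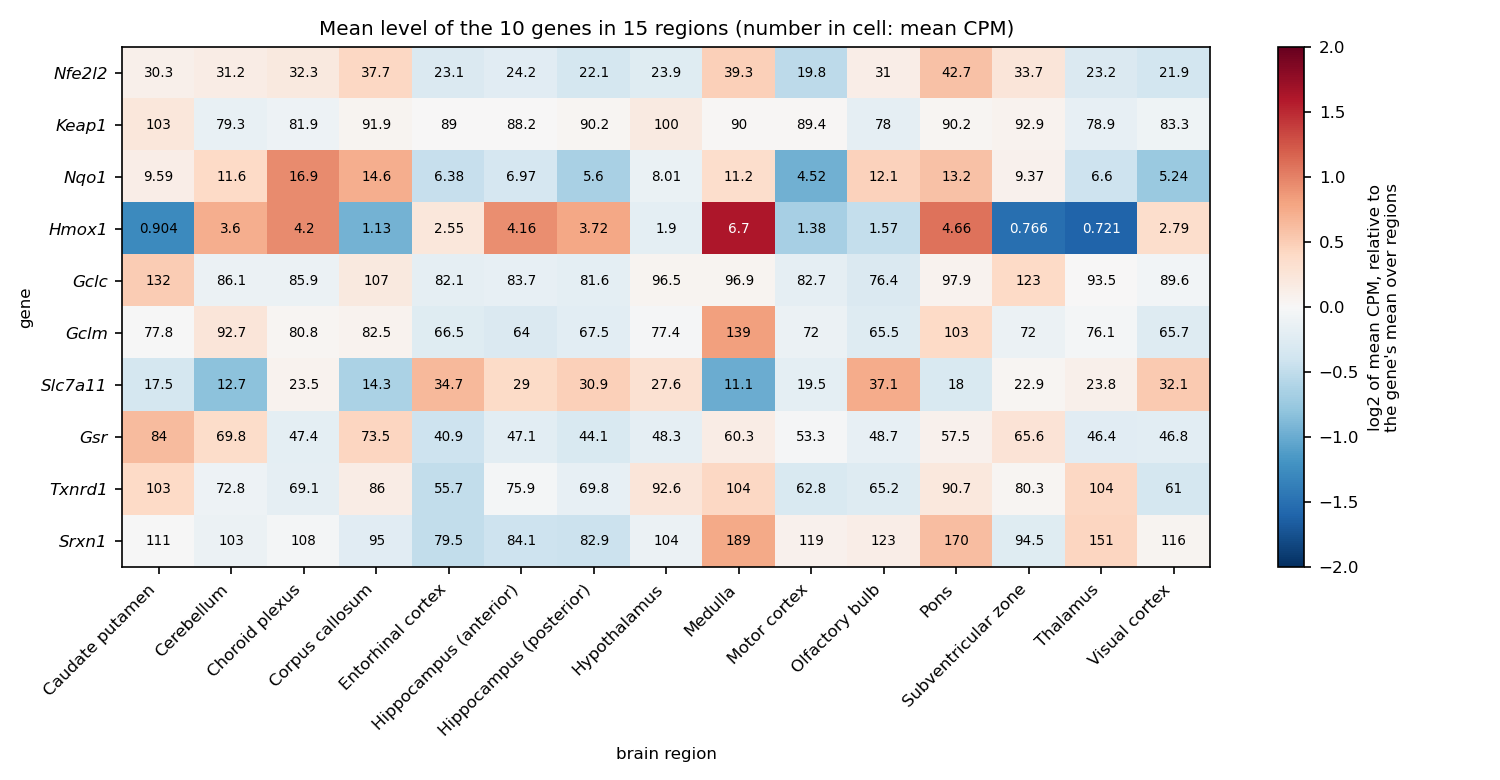
Mean level of each gene (rows) in each brain region (columns), in CPM as printed in the cells; colour gives log2 of that mean relative to the gene's own mean over the 15 regions. Hmox1 has the widest range, from 0.721 CPM in thalamus to 6.7 in medulla, and Slc7a11 is lowest in medulla, where Gclm, Srxn1 and Hmox1 are highest.

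Among the regulators, Nfe2l2 was highest in pons, at 42.7 ± 7.11 CPM (SD over 51 libraries, range 32.03 to 61.89). Medulla followed at 39.32 ± 7.07 CPM and corpus callosum at 37.71 ± 7.07. The order of neighbours was tested by sign flips of the difference within mice (permutation test, 100000 resamples, 2-sided, adjusted over 140 pairs). Pons was above medulla in 34 of 51 mice, by 0.12 on the log2 scale (adjusted p = 0.0139), while medulla and corpus callosum did not differ beyond their spread (adjusted p = 0.327). Motor cortex was lowest, at 19.78 ± 1.98 CPM, and its highest library, at 24.34, lay below the lowest library of pons. Keap1 was at 103 ± 6.84 CPM in caudate putamen and 100.3 ± 7.14 in hypothalamus, which did not differ beyond their spread (adjusted p = 0.151). It was lowest in olfactory bulb, at 77.95 ± 4.52 CPM. Of its 14 neighbouring pairs of regions, 3 differed, so most of the middle of its order is not resolved.

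Nqo1, a quinone reductase, was highest in choroid plexus, at 16.88 ± 5.19 CPM (57 libraries, range 3.963 to 29.6). Corpus callosum had the second mean, 14.58 CPM, but its libraries were spread from 3.216 to 39.28 with a median of 9.871. Nqo1 was lowest in motor cortex, at 4.52 ± 0.848 CPM. Choroid plexus was above corpus callosum in 40 of 56 mice (adjusted p = 0.0284, sign-flip permutation test). Corpus callosum and pons did not differ beyond their spread (adjusted p = 0.55). Hmox1 was at 6.696 ± 1.64 CPM in medulla and 4.655 ± 1.5 in pons, and it was higher in medulla in 46 of 51 mice, by 0.54 on the log2 scale (adjusted p = 7.37e-05). After pons came choroid plexus at 4.202 CPM and anterior hippocampus at 4.163, which were not separated by their spread. At the low end, caudate putamen, subventricular zone and thalamus had means of 0.904, 0.7661 and 0.7209 CPM with libraries at 0 in each.

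Gclc and Gclm encode the catalytic and the modifier subunit of glutamate-cysteine ligase, the first enzyme of glutathione synthesis, yet their orders of regions differed. Gclc was highest in caudate putamen, at 132.5 ± 8.44 CPM (58 libraries, range 109.2 to 145.5), followed by the subventricular zone at 123.3 ± 10.9. Caudate putamen was above the subventricular zone in 43 of 54 mice (adjusted p = 7.37e-05, sign-flip permutation test). Gclm was highest in medulla, at 138.6 ± 25.2 CPM (range 102.7 to 202.1), followed by pons at 103.1 ± 11.8 and cerebellum at 92.73 ± 6.18. Medulla was above pons in 48 of 51 mice by 0.43 on the log2 scale, and pons above cerebellum in 39 of 51 (adjusted p = 7.37e-05 for each). Caudate putamen was at 77.76 CPM for Gclm, in the middle of its order.

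Slc7a11, the cystine importer that supplies cysteine for glutathione, was highest in olfactory bulb, at 37.12 ± 5.5 CPM, and in entorhinal cortex, at 34.7 ± 8.79. They did not differ beyond their spread (adjusted p = 0.177, sign-flip permutation test over 50 mice). The entorhinal cortex library of mouse 52 was at 7.299 CPM, where the others lay between 21.3 and 56.2. This order was not tested without that library. Cerebellum, at 12.66 ± 2.87 CPM, and medulla, at 11.14 ± 3.51, were lowest. Gsr, which regenerates reduced glutathione with NADPH, was highest in caudate putamen, at 83.99 ± 7.72 CPM, above corpus callosum in 51 of 56 mice (adjusted p = 7.37e-05). It was lowest in entorhinal cortex, at a median of 42.4 CPM, where the libraries of mice 15 and 23 stood apart at 10.33 and 13.43 CPM. Those libraries had 1769488 and 1473331 reads, the third and second lowest totals of the 51 in that region. They were also low in Txnrd1, at 14.92 and 13.43 CPM against a median of 57.14 in that region. The part of depth or RNA quality in these values was not tested.

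Txnrd1, the cytosolic thioredoxin reductase, was at 103.6 CPM in medulla and in thalamus and at 103.2 in caudate putamen, with no difference beyond the spread between medulla and thalamus (adjusted p = 0.985, sign-flip permutation test over 58 mice). Srxn1, sulfiredoxin, which repairs overoxidized peroxiredoxins, had the most clearly stepped order. It fell from 189.2 ± 12.5 CPM in medulla through 170.4 ± 21.4 in pons and 150.9 ± 20.4 in thalamus to 122.7 ± 11.6 in olfactory bulb. Each of these steps was present in at least 38 of the 51 to 58 mice with both regions (adjusted p = 7.37e-05 for each). It was lowest in entorhinal cortex, at a median of 76.8 CPM, where the library of mouse 52 reached 153.9.

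The second question was how the members changed with age. In each region, edgeR's quasi-likelihood test of age in months beside sex was run over all genes, with Benjamini-Hochberg adjustment within the region. Slopes are on the log2 scale per month. Of 147 pairs of a member and a region, 26 rose, against 5.87% of all genes and regions tested, and 1 fell, against 4.71%. The median slope of the members was 0.00369 log2 per month, beside -0.00011 over all genes and regions, and 113 of the 147 slopes were above 0. An unadjusted p under 0.05 was reached by 52 pairs. The shares of all genes and regions with a slope above 0 or an unadjusted p under 0.05 are not given here. The pairs share mice between regions, and members were not picked at random, so these counts describe the list and do not test it. By region, 5 members rose in cerebellum (9.45% of all genes rose there), 4 in choroid plexus (11.1%), 3 in caudate putamen (7.32%) and 3 in motor cortex (8.0%).

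**Figure D2:**
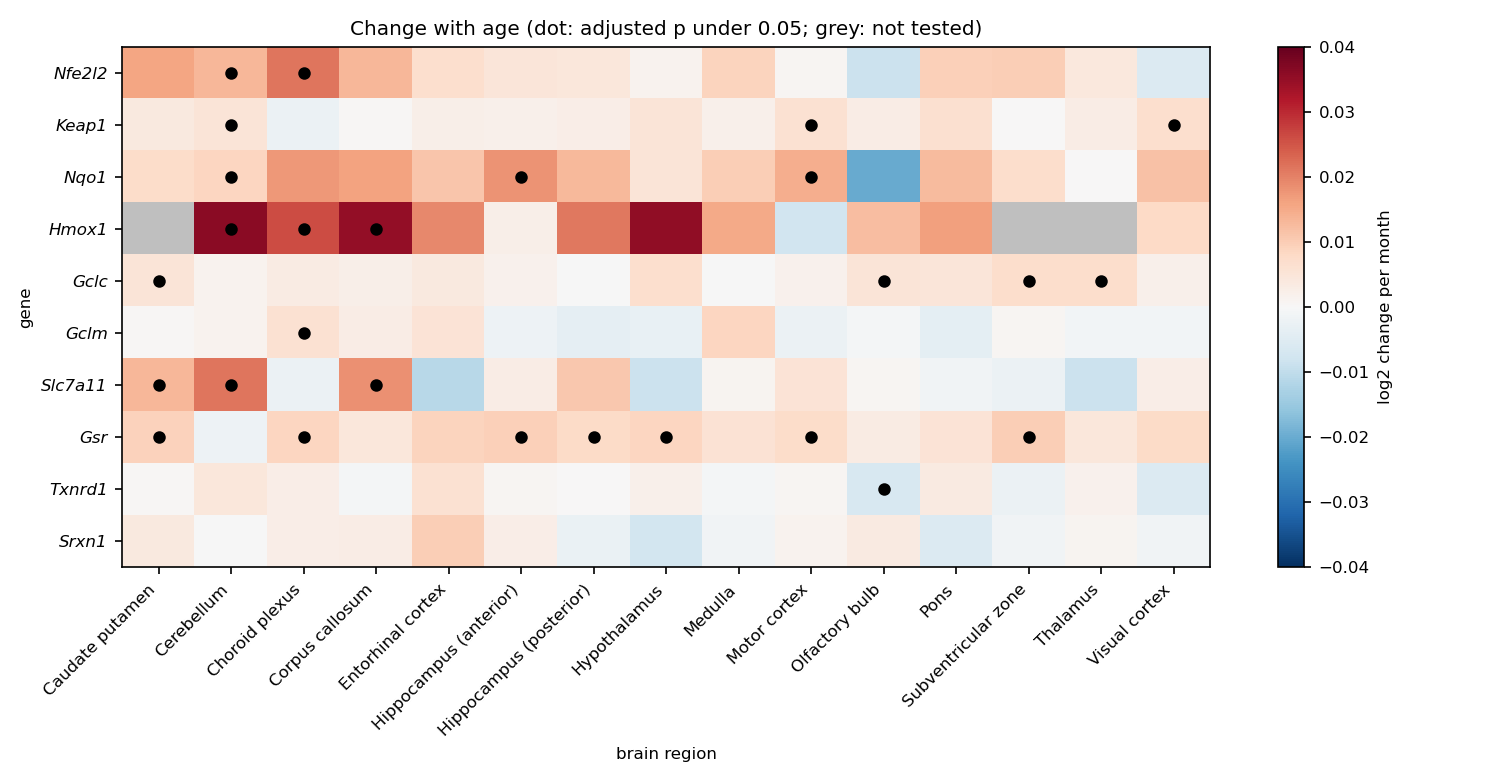
Slope of each gene (rows) with age in each region (columns), in log2 per month from edgeR; dots mark an adjusted p under 0.05 and grey cells were not tested. Gsr has dots in 7 regions, Srxn1 in none, and the only falling dot is Txnrd1 in olfactory bulb.

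Gsr rose in more regions than any other member: 7 of 15, with a positive slope in 14. In anterior hippocampus its median was 41.91 CPM at 3 months (range 36.48 to 47.87, 10 mice) and 48.66 at 21 months (41.36 to 54.43, 11 mice), and the slope was 0.0096 ± 0.0024 (SE, adjusted p = 0.00556, edgeR). The ages overlapped, and the median at 28 months, 48.75 CPM, was close to that at 21 months. In the subventricular zone the median was 59.79 CPM at 3 months (51.77 to 63.61) and 70.39 at 26 months (65.16 to 81.2), with a slope of 0.0099 ± 0.0024 (adjusted p = 0.00458). All 4 libraries of 26 months lay above all 10 of 3 months. The slopes in caudate putamen (0.0092), choroid plexus (0.0086), hypothalamus (0.0086), posterior hippocampus (0.0077) and motor cortex (0.0074) were of similar size. In males alone the adjusted p was 0.0826 in caudate putamen, 0.0805 in choroid plexus and 0.0952 in posterior hippocampus. The slope of motor cortex missed the threshold when mice 16 to 56 were fitted alone (adjusted p = 0.483), and that of hypothalamus in 4 of 20 alternatives, which were males alone (0.124), mice 16 to 56 alone (0.187) and the fits without mouse 17 (0.0537) or mouse 57 (0.0668). In cerebellum the slope of Gsr was -0.0019 ± 0.0023 (adjusted p = 0.63).

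Gclc rose in caudate putamen, olfactory bulb, the subventricular zone and thalamus, with slopes between 0.0052 and 0.0071. In thalamus its median was 85.48 CPM at 3 months (78.01 to 96.61, 10 mice) and 99.04 at 26 months (96.83 to 101.9, 5 mice), and the slope was 0.0069 ± 0.0019 (adjusted p = 0.023, edgeR). All 5 libraries of 26 months lay above the highest of 3 months. Gclc missed the threshold in males alone in caudate putamen (0.148), the subventricular zone (0.0902) and thalamus (0.129). In mice 16 to 56 alone it did so in olfactory bulb (0.0582), the subventricular zone (0.0934) and thalamus (0.124). Without mouse 17, a 3-month male, Gclc missed the threshold in caudate putamen (0.061) and the subventricular zone (0.0556), and in the latter also without mouse 40 (0.0585). Gclm rose in choroid plexus alone, with a slope of 0.0061 ± 0.0022 (adjusted p = 0.0401), and 6 of the 19 alternatives run for it missed the threshold, among them males alone (0.328), mice 16 to 56 alone (0.144) and the fits without mouse 3 (0.0513), mouse 17 (0.104) or mouse 58 (0.073). Its slopes were positive in 7 of 15 regions.

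Slc7a11 rose in cerebellum, corpus callosum and caudate putamen. In cerebellum, where its level was low, the median was 10.77 CPM at 3 months (5.441 to 14.41, 10 mice), 14.38 at 15 months (11.98 to 16.33, 10 mice) and 14.78 at 28 months (13.59 to 20.2, 3 mice). Its slope there was 0.0214 ± 0.0051 (adjusted p = 0.00176, edgeR). In corpus callosum the median was 12.6 CPM at 3 months (10.22 to 13.89) and 17.54 at 26 months (15.41 to 23.62), and the slope was 0.0184 ± 0.0042 (adjusted p = 0.00113). The 4 libraries of 26 months all lay above the 10 of 3 months, while the 3 of 28 months had a median of 13.62 CPM and overlapped with them. The slope in caudate putamen was 0.0134 ± 0.0043 (adjusted p = 0.0283), and it missed the threshold in mice 16 to 56 alone (0.198) and without mouse 17 (0.063) or mouse 59 (0.0602).

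Hmox1 had the largest slopes of the list, in cerebellum, corpus callosum and choroid plexus. In cerebellum its median was 2.975 CPM at 3 months (1.053 to 4.836, 10 mice), 4.042 at 21 months (1.992 to 10.17, 11 mice) and 4.701 at 28 months (3.774 to 4.925, 3 mice), with a slope of 0.0360 ± 0.0080 (adjusted p = 0.000674, edgeR). The ranges of all ages overlapped. In choroid plexus the median was 3.503 CPM at 3 months, 5.355 at 21 months and 4.151 at 28 months, with a slope of 0.0260 ± 0.0067 (adjusted p = 0.00454, and 0.121 in males alone). In corpus callosum, at a median of 1.099 CPM at 3 months and 2.018 at 28 months, the slope of 0.0353 ± 0.0120 (adjusted p = 0.0317) missed the threshold in males alone (0.242), in mice 16 to 56 alone (0.513) and without mouse 58 (0.0668) or mouse 59 (0.0522). Hypothalamus had a slope of the same size, 0.0354 ± 0.0141, that did not pass (adjusted p = 0.121).

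Nfe2l2 itself rose in choroid plexus and cerebellum. In choroid plexus its median was 26.59 CPM at 3 months (19.76 to 39.32, 10 mice), 37.77 at 21 months (32.42 to 47.38, 11 mice) and 37.47 at 28 months (33.89 to 40.65, 3 mice). Its slope there was 0.0213 ± 0.0056 (adjusted p = 0.00537, edgeR), and males alone gave an adjusted p of 0.174. In cerebellum the median was 27.15 CPM at 3 months, 35.82 at 26 months and 30.15 at 28 months, with a slope of 0.0133 ± 0.0039 (adjusted p = 0.0119, and 0.0759 in males alone). Keap1 rose in visual cortex, motor cortex and cerebellum, by 0.0068, 0.0060 and 0.0050 per month. In motor cortex its median was 83.61 CPM at 3 months (74.54 to 89.16) and 99.55 at 28 months (96.55 to 101.3), and the 3 libraries of 28 months lay above all 10 of 3 months. That slope had an adjusted p of 0.173 in males alone. Nqo1 rose in anterior hippocampus (0.0181 ± 0.0058, adjusted p = 0.0373), motor cortex (0.0147 ± 0.0045, adjusted p = 0.0184) and cerebellum (0.0087 ± 0.0032, adjusted p = 0.0472). In anterior hippocampus the median of Nqo1 was 5.886 CPM at 3 months, 8.897 at 26 months and 5.005 at 28 months. Among those of 26 months is the library of mouse 5, which came nearest to choroid plexus. That slope missed the threshold with the choroid plexus markers as a covariate (0.261), in males alone (0.0998), in mice 16 to 56 alone (0.0569) and without mouse 57 (0.052). Nqo1 in cerebellum did so in 7 of 21 alternatives, among them mice 16 to 56 alone (0.375) and the fits without mouse 2, 17, 40, 57 or 59 (0.0517 to 0.125), and in motor cortex without mouse 17 (0.0546). Keap1 missed it without mouse 17 or 59 in visual cortex (0.0639 and 0.0821) and without mouse 17, 37, 57 or 59 in cerebellum (0.0547 to 0.124). It also missed it in mice 16 to 56 alone in visual cortex (0.236) and in males alone in cerebellum (0.235).

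Of the thioredoxin genes, Srxn1 did not pass the test in any region, with slopes between -0.0073 and 0.0099. Txnrd1 passed in olfactory bulb alone, where it fell from a median of 69.03 CPM at 3 months (59.93 to 76.1, 10 mice) to 59.96 at 26 months (55.84 to 63.91, 5 mice), by 0.0064 ± 0.0019 per month (adjusted p = 0.0164, edgeR). Without the olfactory bulb library of mouse 49, a 3-month female, its adjusted p was 0.0504, and in males alone it was 0.21. Of the 27 pairs called, 5 passed under each of the 19 to 21 alternatives run for them: Hmox1 in cerebellum, Slc7a11 in cerebellum and corpus callosum, and Gsr in anterior hippocampus and the subventricular zone.

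**Figure D3:**
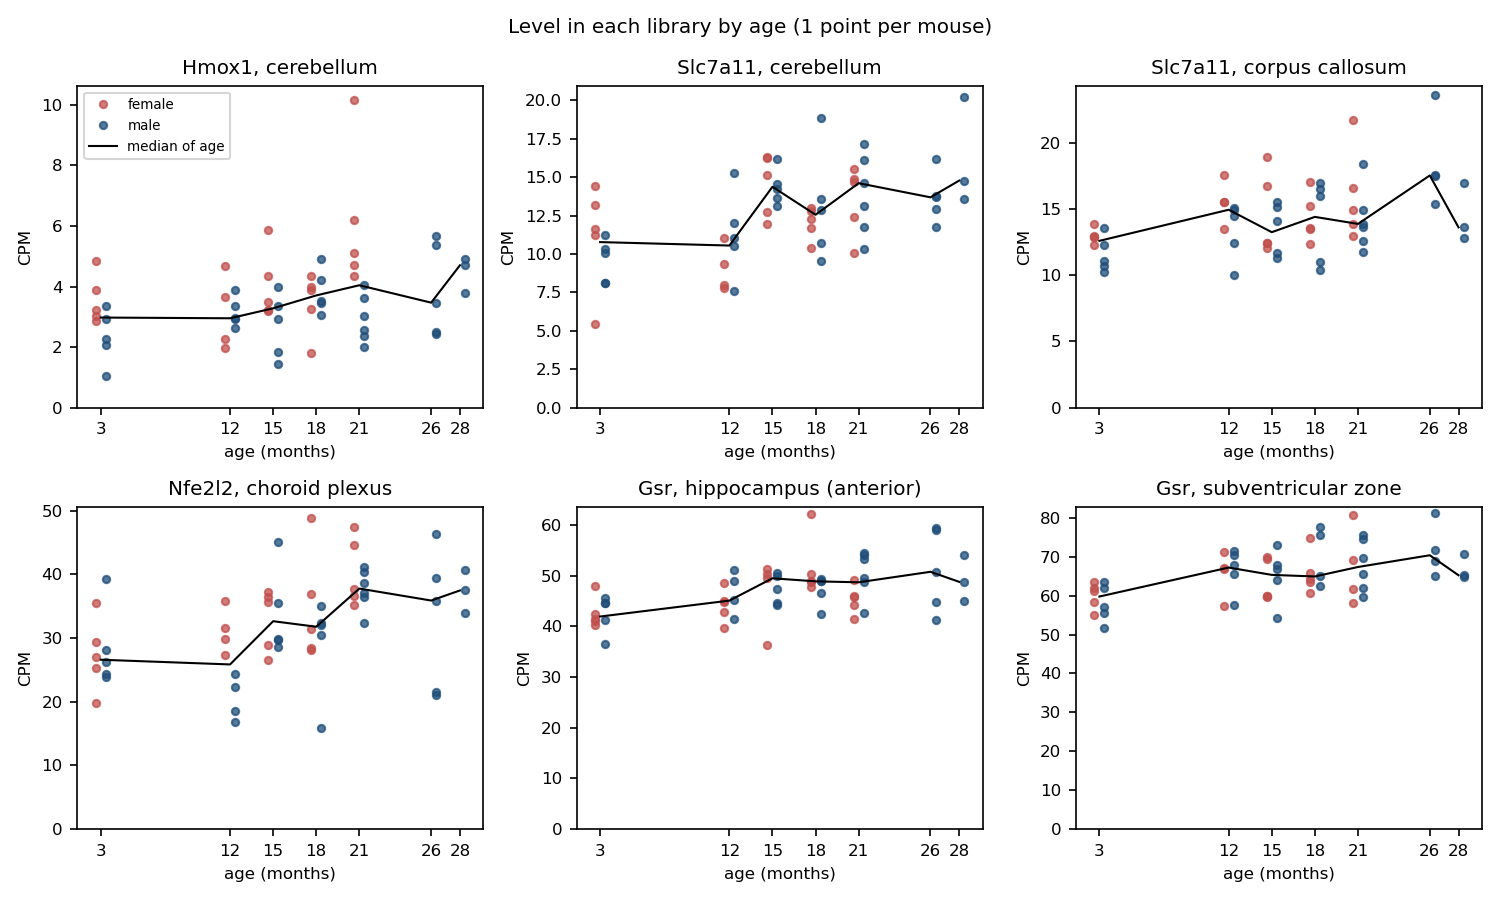
Level of 6 pairs of a gene and a region in each mouse, in CPM against age in months; points are single libraries coloured by sex and the line joins the medians of the ages. Slc7a11 in cerebellum has medians of 10.77 CPM at 3 months and 14.78 at 28 months, and the ranges of 3 and 21 months overlap in all 6 panels.

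Microglia markers rose with age in 60.8% of 120 pairs of a marker and a region, against 5.87% of all genes and regions. Their rise was thus not particular to the regions named here. Of the pairs of astrocyte and oligodendrocyte markers, 24.2% and 6.67% rose. Of the 8 microglia markers, 6 rose in cerebellum, where their sum ranged from 144 to 198.6 CPM at 3 months and from 223.5 to 305.5 at 28 months. In choroid plexus 7 of the 8 microglia markers rose, from a range of 324.1 to 407.8 CPM at 3 months to 461.9 to 526.7 at 28 months. In the same tissue 4 of 8 oligodendrocyte markers rose, from a range of 5165 to 25480 CPM to 12440 to 17490. In corpus callosum 6 of the 8 microglia markers rose, from a range of 391.6 to 500.6 CPM to 584 to 794.7, and 5 of 8 astrocyte markers rose. In anterior hippocampus and the subventricular zone, where Gsr rose, 7 of the 8 microglia markers rose in each. Their part in the slopes of the members was not tested.

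Set against 3 months with age as a factor, 40 of 882 comparisons of a member, a region and a later age passed, 33 upward and 7 downward. These contrasts share the 3-month libraries. At 12, 15 and 18 months 4, 3 and 2 pairs passed, against 1.35%, 1.11% and 2.46% of all genes and regions tested. At 21, 26 and 28 months 15, 9 and 7 of 147 pairs passed, against 6.18%, 3.7% and 5.77%. At 28 months the members were thus called at a rate (4.76%) near that of all genes. The largest called differences were Hmox1 in cerebellum at 28 months (0.87 log2, adjusted p = 0.0356) and at 26 months (0.84 log2, adjusted p = 0.0335). Slc7a11 in corpus callosum at 26 months was higher by 0.67 log2 (adjusted p = 0.000337), and Nqo1 in anterior hippocampus at 26 months by 0.67 log2 (adjusted p = 0.0062). The anterior hippocampus library of mouse 5, of 26 months, came nearest to choroid plexus, the region with the highest mean of Nqo1. Its correlation was 0.947 with choroid plexus and 0.903 with its own region. The difference of Nqo1 was not tested without that library. The 15 mice of 12 and 26 months and the 3 of 28 months cannot be told apart from their blocks of mouse numbers. Without mouse 17, 22 comparisons passed. Of the 7 downward calls, 5 were in olfactory bulb, and without the library of mouse 49 there 2 downward calls were left, both of Slc7a11 in thalamus.

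That library held Nqo1 at 45.19 CPM, while the other 57 olfactory bulb libraries lay between 5.189 and 18.52. Its fibroblast markers summed to 596.9 CPM (others 89.93 to 1104, median 160.3), its mural markers to 164.9 (64.57 to 116.3) and its choroid plexus markers to 96.13 (24.21 to 56.9). Its neuron markers, at 6240 CPM, were below all others (6848 to 8993). Without it, Nqo1 at 12, 15 and 21 months differed from 3 months by -0.23, -0.22 and -0.22 log2 (adjusted p = 0.411, 0.504 and 0.399, edgeR) in place of -0.60, -0.61 and -0.60.

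A joint edgeR fit asked whether the slope of a member in 1 region differed from the mean slope of the other 14. It did in 6 of 150 tests, against 2.0% of all genes and regions. This fit takes the 847 libraries as independent, although they come from 59 mice. With limma-voom and the mouse as a replicate block, Nfe2l2 in choroid plexus (adjusted p = 0.0203), Gsr in cerebellum (0.0142) and Gclm in medulla (0.0291) passed. Srxn1 in entorhinal cortex (0.144), Nfe2l2 in olfactory bulb (0.0594) and Nqo1 in olfactory bulb (0.0838) did not, and without the block limma-voom also missed these (0.0978, 0.0704 and 0.0801). The slope of Nfe2l2 was steeper in choroid plexus, by 0.0156 ± 0.0046 per month (adjusted p = 0.0252), and passed in each of the 9 alternatives run. The slope of Gsr was lower in cerebellum, by 0.0097 ± 0.0027 (adjusted p = 0.019), and missed the threshold in mice 16 to 56 alone (0.0609). Gclm in medulla was steeper by 0.0084 ± 0.0023 (adjusted p = 0.00893). That difference rests on the oldest mice: the medians lay between 121.7 and 139.6 CPM from 3 to 26 months, the 3 mice of 28 months were at 163.5, 185.6 and 202.1 CPM, and mice 16 to 56 alone gave an adjusted p of 0.952. With limma-voom the adjusted p was 0.0162 with all mice and 0.152, 0.227 and 0.0539 without mouse 57, 58 or 59. Srxn1 in entorhinal cortex was steeper by 0.0101 ± 0.0030 (adjusted p = 0.0349). Without 3 libraries, that of mouse 52 among them, the adjusted p was 0.515. The others of these 3, of the subventricular zone and posterior hippocampus, were not among the 13 libraries nearest to another region. The rest of those 13 were kept in that fit. In olfactory bulb the slopes of Nqo1 and Nfe2l2 were lower, by 0.0313 (adjusted p = 0.00451) and 0.0157 (adjusted p = 0.0403). When the library of mouse 49 was left out, the adjusted p were 0.478 and 0.266.

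The sexes were compared over 3 to 21 months, since older females were not among the groups. The level differed in 3 of 147 pairs, against 2.71% of all genes and regions tested. In medulla the share of all genes called was larger than that. An unadjusted p of 0.00756 (Txnrd1) there gave an adjusted p of 0.0373 by edgeR's test. Being called does not set Gclm and Txnrd1 apart from the other genes of medulla. In hypothalamus Hmox1 was lower in males by 0.73 ± 0.19 on the log2 scale (adjusted p = 0.0195, edgeR), with female means between 1.078 and 2.817 CPM over the 5 ages and male means between 0.9678 and 1.78. The male mean was the lower at each of the 5 ages, but the ranges of the sexes overlapped at all 5. In medulla Gclm was lower in males by 0.20 ± 0.06 (adjusted p = 0.0137), and the female mean was the higher at 4 of the 5 ages. At 21 months the 5 females lay between 118.8 and 198.7 CPM and the 6 males between 115.8 and 143.3. In the same region Txnrd1 was higher in males by 0.10 ± 0.03 (adjusted p = 0.0373), with an adjusted p of 0.0535 without mouse 18. No member had a slope with age that differed between the sexes by edgeR's test at the threshold: 0 of 147 pairs, with 5 at an unadjusted p under 0.05, against 0.0727% of all genes and regions called.

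Within a region, members also varied with the cell type markers of the single library. For this, the age and sex line of each region was removed from the log2 CPM of the members and from the log2 sum of each of 13 marker lists, and 1950 correlations over libraries were computed. The lists and the measure were combined after the first results had been seen. Of the correlations, 434 had an adjusted p under 0.05 (permutation test, 100000 resamples). They were not computed for other genes, so this count and the counts of regions below do not set the members apart. Nqo1 followed the fibroblast markers in corpus callosum most closely, with a Pearson r of 0.952 and a Spearman rho of 0.938 over 57 libraries (adjusted p = 0.00017 and 0.00021, permutation test). The r was 0.946 without the 2 farthest libraries and 0.945 in mice 16 to 56. In the same libraries Nqo1 had an r of 0.846 with the choroid plexus markers and of -0.723 with the neuron markers. In choroid plexus it followed the choroid plexus markers, with r = 0.871 and rho = 0.877. Over the regions, Nqo1 was positive at the threshold with the ependyma markers in 10, with a positive r in 15 of 15 and a median of 0.393, with the choroid plexus markers in 8 and with the fibroblast markers in 6.

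Slc7a11 followed the fibroblast markers in 12 of 15 regions at the threshold, with a median r of 0.58. The relation was closest in pons, with r = 0.921 and rho = 0.924 over 51 libraries (adjusted p = 0.00017 and 0.00021, permutation test), 0.919 without the 2 farthest libraries and 0.93 in mice 16 to 56. It was also positive with the markers of border macrophages at the threshold in 10 regions. Srxn1 followed the neuron markers, at the threshold in 10 regions, with r = 0.914 and rho = 0.904 in pons and r = 0.872 in thalamus. Its relation to the fibroblast markers was negative at the threshold in 9 regions. Nfe2l2 was positive at the threshold with the oligodendrocyte and the astrocyte markers in 8 regions each, and negative with the neuron markers in 8. With the fibroblast markers it was positive at the threshold in 9 regions and negative in 1, choroid plexus. Its r with the oligodendrocyte markers was 0.796 in caudate putamen and 0.793 in choroid plexus, where those markers also rose with age. These relations describe libraries, and which cells hold the transcripts was not measured.

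**Figure D4:**
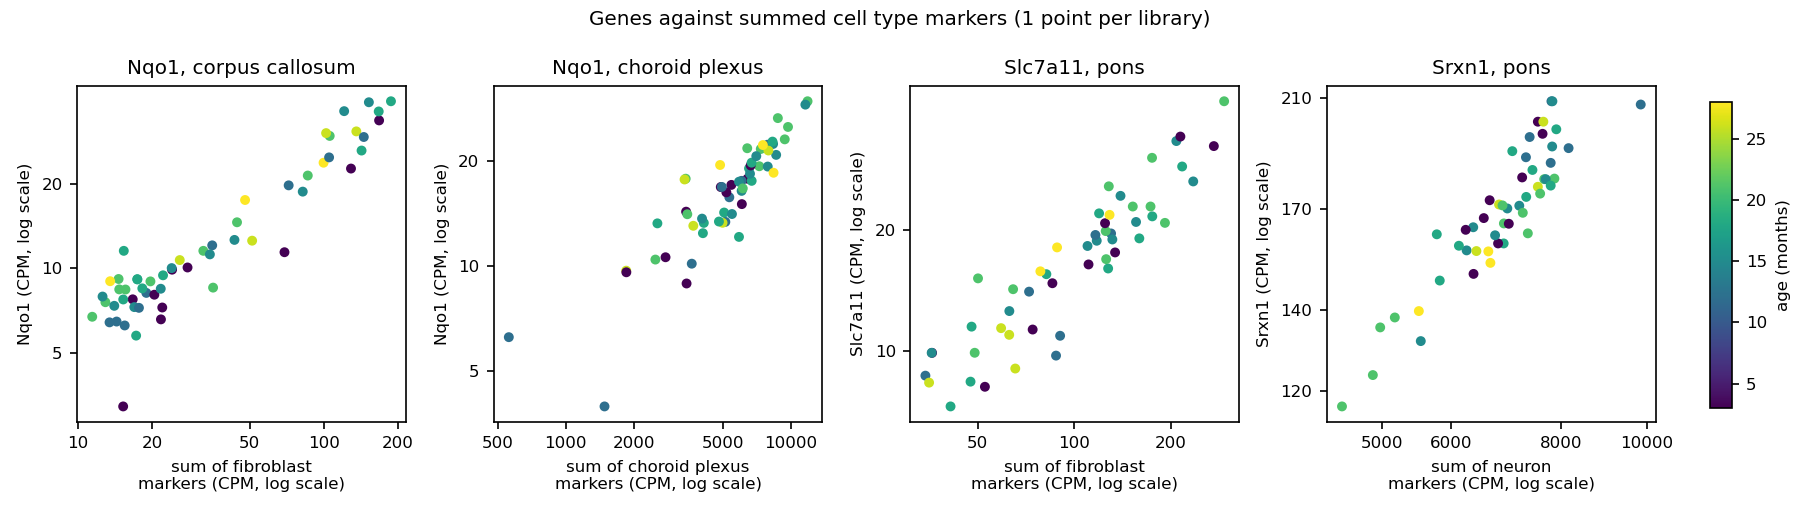
Level of a gene against the summed markers of a cell type in 4 pairs of a gene and a region, both in CPM on log axes; each point is 1 library and the colour is age in months. Nqo1 in corpus callosum runs from 3.22 to 39.3 CPM along the fibroblast markers, and libraries of old and young mice lie along the same band.

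Across mice, members were compared by each mouse's mean deviation from the age and sex lines of its regions. Of the 45 pairs of members, 9 had an adjusted p under 0.05 for Pearson r over 59 mice (permutation test). The share among pairs of other genes was not computed. Gclc and Gsr were the closest pair, with r = 0.694 and rho = 0.613 (adjusted p = 0.00045 for both), 0.675 without the 2 farthest mice and 0.638 in mice 16 to 56. Within regions their r was positive in 15 of 15, with a median of 0.323. Nfe2l2 was positive with Nqo1 (r = 0.459, rho = 0.488, adjusted p = 0.00473 and 0.00383), Gclm (r = 0.453, rho = 0.405, adjusted p = 0.00555 and 0.0141) and Hmox1 (r = 0.358, rho = 0.275, adjusted p = 0.0335 and 0.136). Without the 2 farthest mice these r were 0.371, 0.333 and 0.247, and in mice 16 to 56 they were 0.466, 0.489 and 0.475. Hmox1 and Gclm had r = 0.418 and rho = 0.374 (adjusted p = 0.00877 and 0.0238, permutation test), and with a prior count of 0.5 the adjusted p of rho was 0.0781.

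Keap1 and Nfe2l2 were negatively related across mice, with r = -0.421 and rho = -0.389 (adjusted p = 0.00877 and 0.0173, permutation test). The r was -0.405 without the 2 farthest mice and -0.366 in mice 16 to 56, where it missed the adjusted threshold (0.0749). Within regions the median r of this pair was -0.0655, with 6 of 15 positive and a range of -0.474 to 0.574. The relation seen in means over regions was thus weak in the median region and of mixed sign. Keap1 was also negative with Gclm (r = -0.429, rho = -0.455, adjusted p = 0.00788 and 0.0054) and Hmox1 (r = -0.351, rho = -0.355, adjusted p = 0.035 and 0.0326). Within regions Keap1 and Gclm had a median r of -0.225, but Keap1 and Hmox1 had one of 0.0271 with 9 of 15 positive, and with a prior count of 0.5 the adjusted p of the rho of Keap1 and Hmox1 was 0.0742. Nfe2l2 and Gclc had r = -0.348 and rho = -0.429 (adjusted p = 0.035 and 0.00855), and mice 16 to 56 gave -0.376 (0.0688). Within regions the median r of Nfe2l2 and Gclc was -0.0542, with 7 of 15 positive. Gclc and Gclm, the 2 subunits of 1 enzyme, had r = -0.0816 and rho = -0.0641 (adjusted p = 0.793 and 0.829, permutation test).

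**Figure D5:**
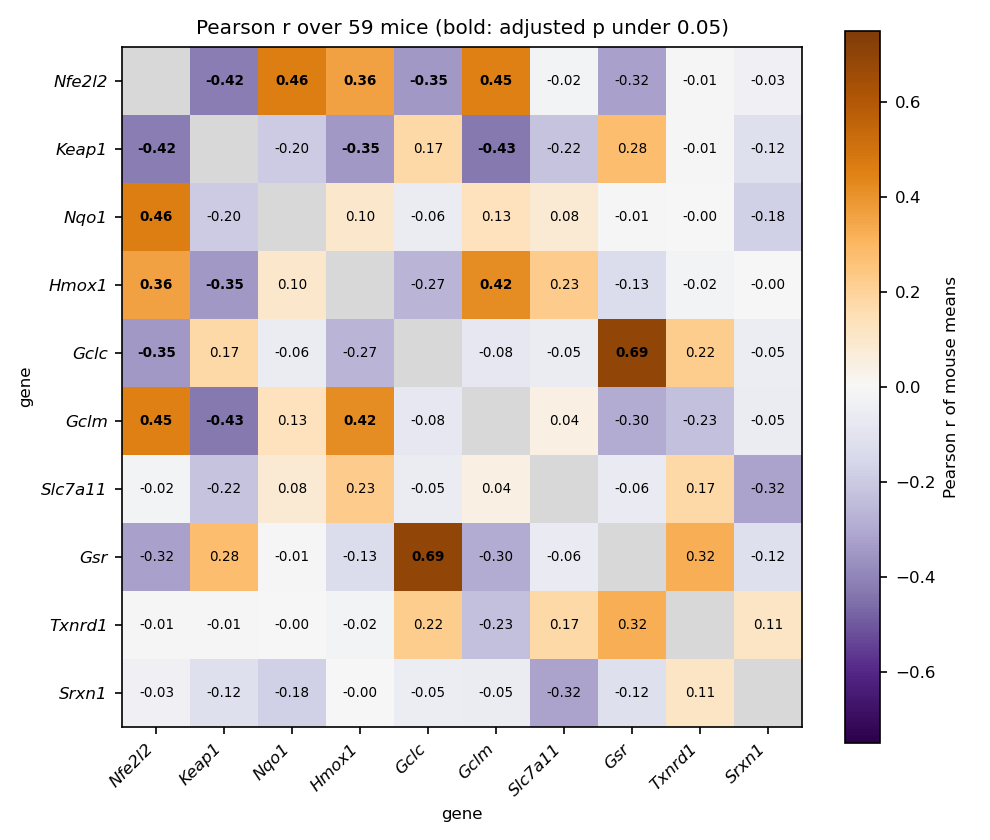
Pearson r between genes over 59 mice, from each mouse's mean deviation from the age and sex line of its regions; bold numbers have an adjusted p under 0.05 by permutation. Gclc and Gsr stand out at 0.69, and Keap1 is negative with Nfe2l2, Gclm and Hmox1.

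The genes most like each member were taken from those with a mean of at least 5 CPM, by Pearson r, as a description. Over the means of 15 regions, Nfe2l2 was nearest to Plin3 (0.962), Zfp36 (0.957) and Vamp3 (0.943), and Gclm to Rpl26 (0.962), Scnm1 (0.951) and Yif1a (0.947). Over the 847 libraries, after removal of the age and sex line of each region, Nfe2l2 was nearest to Cd9 (0.682), Npc2 (0.68) and Cd63 (0.659), and Nqo1 to Vamp8 (0.692), Tcn2 (0.685) and Cd63 (0.663). Slc7a11 was nearest to Gjb2 (0.664), Slc6a13 (0.62) and Aldh1a2 (0.593), of which Slc6a13 is in the fibroblast marker list. These libraries share animals and differ in depth, and Hmox1 was under the minimum level for this measure.

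Other genes of the pathway were taken from 7 lists with 61 genes. In the list of heme and iron genes 28.6% of the pairs of a gene and a region rose and 0.952% fell, and in the detoxification list 20.2% rose and none of 114 fell, beside 5.87% and 4.71% of all genes and regions. Ftl1, the ferritin light chain, rose in 14 of 15 regions, most in pons (0.0279 ± 0.0040 log2 per month, adjusted p = 7.86e-07, edgeR), and Fth1, the heavy chain, in 6. Ugt1a6a, a glucuronosyltransferase, rose in 11 regions with slopes of up to 0.0520, and Aox1, aldehyde oxidase, in 6. Of 16 glutathione genes, the transferases Gstm1, Gstp1 and Mgst1 rose in 11, 7 and 5 regions, while 5 genes of that list changed in none. Of the pairs of that list 14.6% rose and 1.25% fell. In the NADPH list, where 16.7% of the pairs rose and 2.22% fell, Tkt, of the pentose phosphate pathway, rose in 8 regions. G6pdx, the first enzyme of that pathway, rose in 6. Among 10 thioredoxin genes Prdx1 rose in 6 regions, while of the 150 pairs of that list 12 rose (8.0%) and 5 fell (3.33%), near the shares of all genes and regions.

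Of 143 pairs of a partner gene of Nrf2 and a region, 9 rose (6.29%) and 8 fell (5.59%), near the shares of all genes and regions (5.87% and 4.71%). Sqstm1, the autophagy adaptor p62, which binds Keap1, rose in 5 regions with slopes between 0.0047 and 0.0068. Mafg, a small Maf partner of Nrf2, fell in 5 regions, by 0.0109 ± 0.0028 per month in the subventricular zone (adjusted p = 0.00747, edgeR). Of 60 pairs in the superoxide list 2 rose (3.33%) and 5 fell (8.33%), and 4 of the falls were of Sod2. Nothing is said by these counts about whether a gene of the lists is under the control of Nrf2 in these tissues.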

How the data were processed

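The deposited table holds whole-number read counts per gene, made by the authors. Per the labels' protocols, RNA was extracted with RNeasy and libraries were made with Smart-Seq2 and Nextera XT, which keep no strand. Per the submitters' processing notes, Trim Galore 0.3.7, STAR 2.5.3a, DESeq2 and the GRCm38 genome were used. The counting tool is not given in the sources used here. Libraries held between 481444 and 26756735 reads, and the median reads of a member per library ran from 13 (Hmox1) to 733 (Srxn1), which sets the precision of each.

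From the counts, edgeR 4.0.16 (R 4.3.3) was run over all genes that passed its filter on low counts, with TMM factors, the quasi-likelihood test and Benjamini-Hochberg adjustment within each region and contrast, at a threshold of 0.05. The age slope and the age groups had sex as a covariate, the sex level had age, and 1 joint fit over 847 libraries compared regions. CPM values use TMM factors over all libraries, and log2 CPM a prior count of 2. Permutation tests used 100000 resamples drawn with numpy 2.4.6, with ranks and adjustment from scipy 1.17.1. The edgeR tests and the joint limma-voom fits were first tested on simulated data, which held no differences between mice. DESeq2, the fits with covariates and the fits per region with mice left out were not tested in this way. The named genes were the 10 members, the pathway list genes past the threshold for age in at least 5 regions in 1 direction, and the 3 genes most like each member. Ttr, a marker used to check the labels, and Sod2 fall outside this rule and were chosen after their values were seen. The alternatives were RLE factors, no filter, DESeq2 1.42.0, depth and choroid plexus covariates, males alone, mice 16 to 56 alone, left-out mice and libraries, and a mouse block. Fits per region with 1 of 14 mice left out kept the gene filter and the dispersion trend of the full fit. The relations to marker lists and the fits without the olfactory bulb library of mouse 49 were chosen after seeing the data. The members and lists were chosen with earlier results of these data known.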

Additional observations from a re-analysis of the deposited data

Results flagged for a closer look

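In 140 groups of 4 to 10 libraries of the same gene, region and age, taken from the pairs that passed the test for age, 9 libraries lay far from the others by Dixon's test, which chance alone gives in about 1 of 20 groups. Gsr was at 64.5 CPM in the caudate putamen of mouse 22 at 15 months, where the others lay between 79.4 and 96.4. In anterior hippocampus Gsr was at 36.4 CPM in mouse 38 at 15 months (others 44.2 to 51.3) and at 62.1 in mouse 55 at 18 months (42.5 to 50.4). In cerebellum at 18 months Slc7a11 was at 18.9 CPM in mouse 27 (9.54 to 13.6) and Nqo1 at 18.2 in mouse 23 (9.45 to 13.3). Gclm in choroid plexus was at 88.3 CPM in mouse 13 at 12 months (68.2 to 77.2) and at 97.7 in mouse 14 at 26 months (76.4 to 80.4). Keap1 was at 74.0 CPM in the motor cortex of mouse 30 at 15 months (87.6 to 101), and Gclc at 95.7 in the olfactory bulb of mouse 20 at 21 months (70.2 to 81.0).

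In 6 cases the slope with age in 1 region differed from the mean slope of the other 14 by edgeR's test of the difference. In log2 per month the differences were 0.0156 for Nfe2l2 in choroid plexus, 0.0101 for Srxn1 in entorhinal cortex and 0.0084 for Gclm in medulla. They were -0.00971 for Gsr in cerebellum, -0.0157 for Nfe2l2 in olfactory bulb and -0.0313 for Nqo1 in olfactory bulb.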

How the results depend on the processing

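The count of age slopes past the threshold, 27, was 13 in males alone, 18 in mice 16 to 56 alone, 19 without mouse 17 and between 22 and 28 under the other alternatives. The count of differences from 3 months, 40, was 14 in males alone, 15 in mice 16 to 56 alone, which give only those of 15, 18 and 21 months, and between 22 and 40 with single mice left out, 22 being without mouse 17. Without the olfactory bulb library of mouse 49 these counts were 26 and 35. Nqo1 in olfactory bulb at 21 months against 3 months turned from -0.60 to 0.0384 log2 in males alone, which leave out that library. The count of slopes that differ between the sexes was 0, and between 0 and 1 with single mice left out. The count of regional slopes, 6, was 4 with limma-voom and 3 with limma-voom and the mouse as a replicate block. It was between 2 and 3 with limma-voom and single mice of 28 months left out, and 4 without the library of mouse 49. The replicate block comes from the mouse numbers, which mark the same animal across regions, and it left 136 of the 137 differences in regional level. The counts of neighbouring regions (54), of related pairs of members (9) and of sex differences (between 2 and 3) stayed within 1.5 times under the alternatives run. Males alone leave fewer samples, and mice 16 to 56 leave out 3 of the 7 ages. For the other changes the cause was not tested. Low counts limit Hmox1 most.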
